A study of Mus musculus with 5 samples.

Results

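The MHC class I antigen presentation machinery and the immunoproteasome were followed through 10 genes: the class I heavy chains H2-K1 and H2-D1, their light chain B2m, the peptide transporter subunits Tap1 and Tap2, the peptide-loading chaperone Tapbp, the transcriptional activator Nlrc5, and the inducible proteasome subunits Psmb8, Psmb9, and Psmb10. They were found by symbol among the 24421 genes listed in each deposited table, and all 10 were present in both. The set was chosen by gene function together with a measured value, the low Psmb9 level in shGldc cells relative to NTC cells, so all values of that contrast are given as a description.

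The series holds 5 mouse RNA-seq libraries. MEFs are embryonic fibroblasts, grown from CF-1 embryos in serum, and the iPSC line is a purchased line of reprogrammed cells. V6.5 is a line of mouse embryonic stem cells, hereafter mESCs, and was sequenced untreated. V6.5 cells carrying a lentiviral non-targeting shRNA gave the NTC library, and V6.5 cells stably expressing an shRNA against Gldc, the glycine decarboxylase of the glycine cleavage system, gave the shGldc library. By the growth protocol in the labels, the pluripotent cells were kept without feeder cells on gelatin, in LIF and serum replacement with a little serum. Each group was 1 library of 1 line or culture, so there is no replicate error, no test, and no p-value, and every difference below compares these libraries only. An effect of the shRNA cannot be told apart from other differences between the NTC and shGldc cultures. The labels do not say which Gldc shRNA was used, and the heading of the deposited column, sh3, is not among the mouse Gldc shRNA names in the study's methods. Heavy chain genes are highly polymorphic in mice, and the files carry no allele information.

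Class I molecules display peptides made inside the cell to cytotoxic T cells. The peptides are cut by the proteasome, carried into the endoplasmic reticulum by the Tap1-Tap2 transporter, and loaded with the help of tapasin (Tapbp) onto a heavy chain paired with B2m. Interferon gamma, through Jak kinases and Irf1, raises most of these genes and exchanges the constitutive catalytic subunits Psmb5, Psmb6, and Psmb7 for Psmb8, Psmb9, and Psmb10, while Nlrc5 is the class I transactivator. Pluripotent stem cells are known for low surface class I.

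Levels are given as FPKM, the number of sequenced fragments scaled to 1000000 mapped ones and to 1 kb of transcript, as the authors computed them. Their sums ran from 466650 to 576470 per library, 11152 to 11833 genes reached 1 FPKM, and the depth estimated from the lowest values was 22200000 to 29100000 fragments, with the NTC and shGldc depths uncertain by a factor of 2. All 10 pluripotency markers reached 1 FPKM in each of the 4 pluripotent libraries, and 1 of 10 did so in MEFs. All 10 fibroblast markers reached 1 FPKM in MEFs. Gldc itself was at 0.123 FPKM in MEFs, 70.8 in iPSCs, 59.7 in mESCs, 74.7 in NTC cells, and 2.07 in shGldc cells, which is 36.0-fold lower than in NTC cells. Bulk RNA cannot separate fewer cells of a type from less RNA per cell.

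The heavy chains were expressed in every library. H2-K1 (chr17:33996017-34000347, minus strand, mm10) stood at 38.1 FPKM in MEFs, 37.5 in iPSCs, 38.8 in mESCs, 45.4 in NTC cells, and 24.04 in shGldc cells. The shGldc library was the lowest, and the MEF, iPSC, and mESC levels lay within a narrow band. H2-D1 (chr17:35262730-35267499, plus strand) stood at 56.0 FPKM in MEFs, 27.4 in iPSCs, 27.1 in mESCs, 37.3 in NTC cells, and 19.4 in shGldc cells. Here MEFs were the highest and shGldc cells again the lowest. On the log2 scale with 0.1 added to each FPKM, which is used for all log2 ratios, H2-D1 was lower than in MEFs by -1.04 in mESCs and -1.03 in iPSCs, whereas H2-K1 differed by 0.03 and -0.02. In shGldc over NTC cells, the ratios were -0.92 for H2-K1 and -0.94 for H2-D1, both short of the 2-fold line.

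The light chain showed the widest gap between MEFs and the pluripotent cells in absolute terms. B2m (chr2:122147686-122153083, plus strand) stood at 459 FPKM in MEFs, 25.8 in iPSCs, 34.3 in mESCs, 16.4 in NTC cells, and 21.2 in shGldc cells. Its level in mESCs was 13.4-fold lower than in MEFs, and in iPSCs 17.8-fold lower. The ratio of B2m to the summed heavy chains H2-K1 and H2-D1 was 4.87 in MEFs, 0.397 in iPSCs, 0.520 in mESCs, 0.198 in NTC cells, and 0.488 in shGldc cells. B2m transcripts thus exceeded those of the heavy chains in the MEF library and stayed below them in the other 4. Macrophage markers were also high in the MEF library: 11 of 12 reached 1 FPKM, with Lyz2 at 142 and C1qa at 52.7, and the list summed to 342 FPKM there against 11.8 to 22.3 in the other libraries, most of it Cd68. The part of these cells in the B2m level was not tested. Fibroblast markers in mESCs had a median of 2.30% of their MEF level (0.559% to 9.21%), beside 7.48% for B2m and 10.4% for Psmb8. In iPSCs the median was 0.156% (0% to 22.1%), beside 5.61% for B2m and 4.80% for Psmb8. In NTC cells it was 1.40% (0% to 8.94%), beside 3.57% and 0.390%. The shGldc median was 0.242% (0% to 7.04%), beside 4.62% and 6.51%. The part of fibroblast RNA in these levels was not tested.

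**Figure D1:**
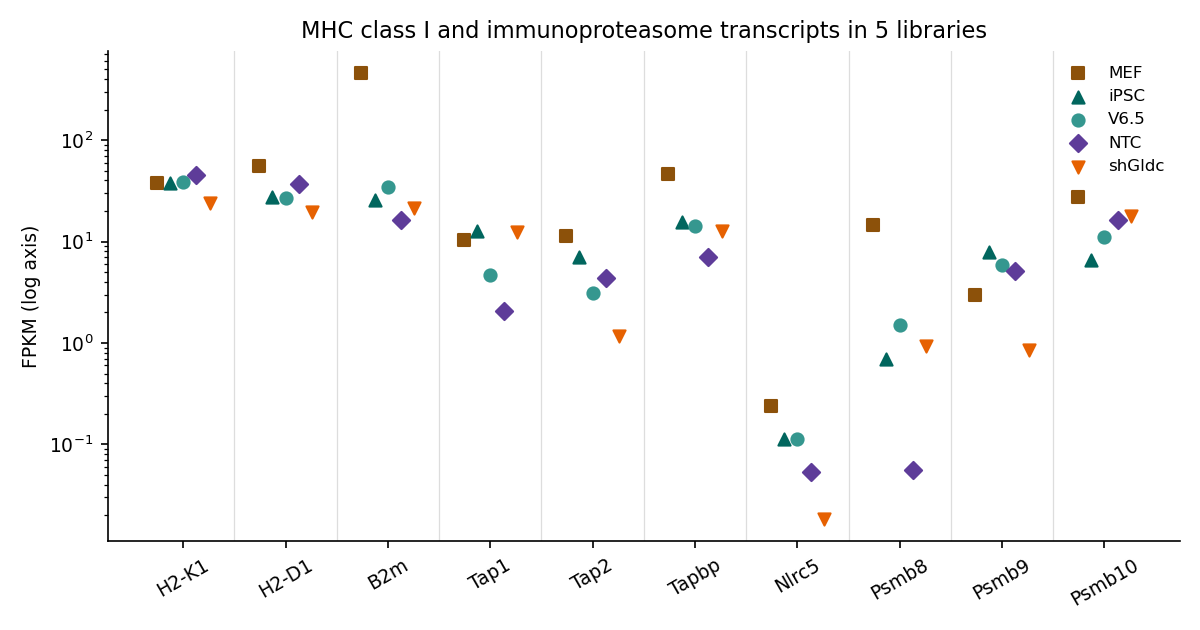
FPKM of the 10 genes on a log axis, 1 point per library (brown squares, MEFs; dark green triangles, iPSCs; light green circles, untreated V6.5 mESCs; purple diamonds, NTC; orange inverted triangles, shGldc). B2m, Tapbp, Psmb8, and Psmb10 were highest in MEFs, H2-K1 spanned only 24.04 to 45.4 FPKM, and Nlrc5 stayed below 1 FPKM in every library.

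The heavy chain and B2m promoters are shown because they hold the DNA elements through which class I transcription is known to be controlled. Promoter entries of RefSeq (GRCm38.p6, 250 bases before to 50 after a gene's start) existed for 8 of the 10 genes. Patterns described here, searched on both strands, were the interferon regulatory factor element AANNGAAA, the NF-kappaB site GGGATTCCC, and the CCAAT box, none of which overlapped another in the windows printed. In the following 29-base stretches, capitals mark the NF-kappaB site and the interferon element, which is read on the opposite strand in the heavy chain genes.
H2-K1, chr17:34000430-34000458, minus strand: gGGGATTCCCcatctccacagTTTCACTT
H2-D1, chr17:35262923-35262951, plus strand: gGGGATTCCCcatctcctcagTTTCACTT
B2m, chr2:122147550-122147578, plus strand: AACTGAAAatgggaaagtccctttgtaac

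The H2-K1 and H2-D1 stretches differed at 1 of 29 bases, A18T counted from the 5′ end of the H2-K1 stretch. Counted from the RefSeq start, they lay at -111 to -83 in H2-K1 and at -171 to -143 in H2-D1. B2m carried the interferon element at -137 to -130. GENCODE M21 places no exon over the H2-K1 and B2m stretches, while the H2-D1 stretch falls in the first exon of a longer H2-D1 transcript. The element AANNGAAA was found in 3 of the 8 promoters, H2-K1, H2-D1, and B2m, against 24.2% of 27025 promoters, and GGGATTCCC in 2 of 8, against 0.37%. The CCAAT box was in 6 of 8, against 37.9%. A match describes letters in a window and not binding. The wider upstream sequence of H2-K1 and B2m follows, with the same elements and the CCAAT box (ATTGG on this strand) in capitals.
H2-K1, chr17:34000348-34000597, minus strand: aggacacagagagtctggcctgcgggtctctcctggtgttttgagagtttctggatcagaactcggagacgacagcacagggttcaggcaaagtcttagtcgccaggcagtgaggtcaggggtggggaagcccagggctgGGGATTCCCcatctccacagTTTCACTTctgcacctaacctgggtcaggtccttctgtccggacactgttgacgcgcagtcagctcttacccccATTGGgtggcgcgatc
B2m, chr2:122147437-122147685, plus strand: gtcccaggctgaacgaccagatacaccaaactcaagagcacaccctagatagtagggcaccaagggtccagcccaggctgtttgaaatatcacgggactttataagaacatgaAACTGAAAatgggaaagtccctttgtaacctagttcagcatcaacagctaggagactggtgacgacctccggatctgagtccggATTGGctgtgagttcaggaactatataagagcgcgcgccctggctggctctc

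H2-K1 and H2-D1 had log2 profiles over the 5 libraries that lay 0.386 apart (root mean square, each profile centred on its own mean). Among the 10 genes, the nearest to H2-D1 was Nlrc5, at 0.339, although Nlrc5 was barely detected. B2m was 13.4-fold lower in mESCs than in MEFs and H2-K1 was not. The heavy chain genes also share coding sequence, which limits how fragments can be assigned to them. Of the 50-base stretches of their GENCODE M21 transcripts, 9.63% in H2-K1 and 12.8% in H2-D1 also occurred in other genes, 25 for H2-K1 and 168 for H2-D1. H2-Q10 and H2-D1 shared the most with H2-K1, and H2-Q1 and H2-K1 the most with H2-D1. The longest coding stretch common to their longest coding transcripts was 91 bases, at bases 738 to 828 of the H2-K1 coding sequence and 747 to 837 of the H2-D1 coding sequence.
Shared by H2-K1 and H2-D1: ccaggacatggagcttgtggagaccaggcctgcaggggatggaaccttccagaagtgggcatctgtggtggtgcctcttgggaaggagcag

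The transporter subunits, which work as a heterodimer, did not keep a fixed ratio. Tap1 (chr17:34187553-34197225, plus strand) stood at 10.4 FPKM in MEFs, 12.6 in iPSCs, 4.64 in mESCs, 2.08 in NTC cells, and 12.5 in shGldc cells. Tap2 (chr17:34203527-34216321, plus strand) stood at 11.3 FPKM in MEFs, 7.003 in iPSCs, 3.08 in mESCs, 4.35 in NTC cells, and 1.17 in shGldc cells. Tap1 was therefore as high in shGldc cells as in iPSCs, while Tap2 was lowest in shGldc cells. The Tap1 to Tap2 ratio was 0.924 in MEFs, 1.80 in iPSCs, 1.504 in mESCs, 0.478 in NTC cells, and 10.7 in shGldc cells. In shGldc over NTC cells, Tap1 was 6.03-fold higher (log2 ratio 2.54) and Tap2 3.72-fold lower (log2 ratio -1.81). Of the 11969 genes tested in that comparison, 95% lay between -1.93 and 2.24, so Tap1 was beyond this range and Tap2 within it.

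Tapbp (chr17:33915899-33929292, plus strand), the chaperone that bridges the transporter and the heavy chain, stood at 46.6 FPKM in MEFs, 15.7 in iPSCs, 14.3 in mESCs, 7.06 in NTC cells, and 12.8 in shGldc cells. It was lower than in MEFs by -1.69 in mESCs and -1.56 in iPSCs on the log2 scale. Its ratio in shGldc over NTC cells was 0.85. Of the stretches of Tapbp transcripts, 23.2% also occurred in other annotated genes, and its exons overlap Gm19412 and Zbtb22.

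Nlrc5 (chr8:94434356-94527272, plus strand) was barely detected. It stood at 0.238 FPKM in MEFs, 0.114 in iPSCs, 0.114 in mESCs, 0.0539 in NTC cells, and 0.0185 in shGldc cells. By the longest coding transcript, these values equal 44.5 fragments in MEFs, 11.9 in NTC cells, and 4.05 after shGldc. By the shortest they equal 10.1, 2.70, and 0.920. Being below 1 FPKM throughout, Nlrc5 entered no count of genes. With 3 fragments taken as the floor for counting error alone, the NTC and shGldc values both lay above it by the longest transcript and both under it by the shortest, so no difference between them is read.

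Of the inducible proteasome subunits, Psmb8 and Psmb10 were highest in MEFs and Psmb9 was not. Psmb8 (chr17:34197721-34201454, plus strand), the chymotrypsin-like subunit β5i, stood at 14.5 FPKM in MEFs, 0.693 in iPSCs, 1.51 in mESCs, 0.0565 in NTC cells, and 0.941 in shGldc cells. It was 9.60-fold lower in mESCs than in MEFs and 20.9-fold lower in iPSCs. The NTC value equals 2.67 fragments by the longest coding transcript, under the floor of 3, so values that rest on it are uncertain. The log2 ratio of shGldc over NTC cells was 2.73 with 0.1 added, 0.88 with 1 added, and 3.84 with 0.01 added. Psmb10 (chr8:105935735-105938444, minus strand), the trypsin-like subunit β2i, stood at 27.8 FPKM in MEFs, 6.65 in iPSCs, 11.1 in mESCs, 16.4 in NTC cells, and 18.0 in shGldc cells. It was 4.18-fold lower in iPSCs than in MEFs, and its log2 ratio in shGldc over NTC cells was 0.14.

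Psmb9 (chr17:34181987-34187764, minus strand), the subunit β1i, ran the other way. It stood at 2.95 FPKM in MEFs, 7.93 in iPSCs, 5.85 in mESCs, 5.14 in NTC cells, and 0.855 in shGldc cells. The level in iPSCs was 2.69-fold higher than in MEFs, and mESCs were higher by 0.96 on the log2 scale. The shGldc level, for which the gene was chosen, was 6.01-fold lower than in NTC cells (log2 ratio -2.46) and the lowest of the 5 libraries. With 1 in place of 0.1 added to each FPKM, the log2 ratio was -1.73. The shGldc level equals 10.7 to 33.4 fragments, by the shortest and the longest coding transcript, against 64.7 to 202 in NTC cells. Both ranges rest on depths uncertain by a factor of 2. Psmb9 passed the filter of 1 FPKM in that comparison only through the NTC library.

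The constitutive catalytic subunits were far more abundant in every library. Psmb5 stood at 110 FPKM in MEFs, 524 in iPSCs, 361 in mESCs, 388 in NTC cells, and 467 in shGldc cells. Psmb6 stood at 187 FPKM in MEFs and between 393 and 738 in the other libraries, and Psmb7 at 179 FPKM in MEFs and between 296 and 356 in the others. The share of the inducible partner was computed from the FPKM of each pair, which is scaled by transcript length. Psmb8 made up 11.6% of the Psmb8 and Psmb5 pair in MEFs, 0.132% in iPSCs, 0.416% in mESCs, 0.0145% in NTC cells (from the value under the floor), and 0.201% in shGldc cells. Psmb10 made up 13.4% of its pair with Psmb7 in MEFs, 1.84% in iPSCs, 3.62% in mESCs, 5.09% in NTC cells, and 4.82% in shGldc cells. Psmb9 made up 1.55% of its pair with Psmb6 in MEFs, 1.34% in iPSCs, 1.47% in mESCs, 0.903% in NTC cells, and 0.116% in shGldc cells. For the 3 pairs together, the inducible share was 8.66% in MEFs, 1.03% in iPSCs, 1.73% in mESCs, 1.69% in NTC cells, and 1.25% in shGldc cells. All 3 shares were highest in MEFs, for Psmb9 by a small margin (1.55% against 1.47% in mESCs). The low Psmb9 share in shGldc cells follows from the value for which the gene was chosen.

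**Figure D2:**
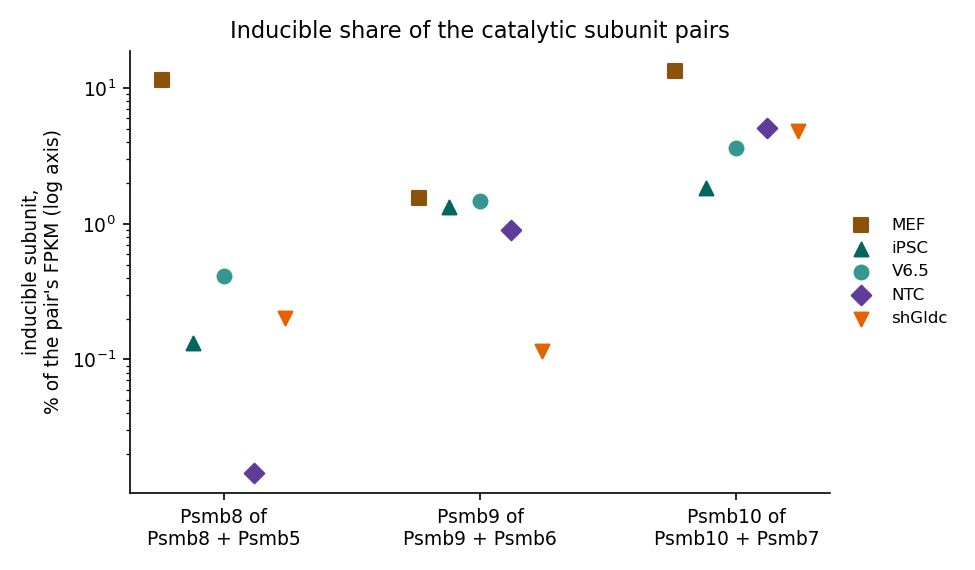
Inducible subunit as a percent of the summed FPKM of each inducible and constitutive pair, on a log axis, 1 point per library. Each share was highest in MEFs (Psmb8 11.6%, Psmb10 13.4%, and Psmb9 1.55%). The Psmb9 share was lowest in shGldc cells (0.116%), the library whose Psmb9 level chose the gene.

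Relative to MEFs, B2m, Psmb8, Psmb10, Tapbp, and H2-D1 were at least 2-fold lower in both mESCs and iPSCs, and Tap1 and Tap2 in mESCs. For counts, a gene had to reach 1 FPKM in at least 1 library of a comparison, and a difference was counted from 2-fold on the log2 scale above. In mESCs over MEFs, 9 genes were measured, of which 0 were higher and 7 lower, with a median log2 ratio of -1.31. Over all 12840 genes, 30.3% were higher and 23.3% lower, with a median of 0.25. In iPSCs over MEFs, 1 of 9 was higher (Psmb9) and 5 were lower (H2-D1, B2m, Tapbp, Psmb8, and Psmb10), with a median of -1.03, beside 31.5% higher and 21.3% lower of 13032 genes and a median of 0.31. Psmb8 passed the filter in iPSCs over MEFs only through MEFs. Both comparisons share the MEF library. B2m and Psmb8 were the lowest in each, at -3.74 and -3.18 in mESCs and at -4.15 and -4.20 in iPSCs, inside the central 95% of all genes, whose lower bounds were -4.54 and -4.84.

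Between the pluripotent lines, the transporter genes were the ones that stood higher in iPSCs. In iPSCs over mESCs, Tap1 (log2 ratio 1.42) and Tap2 (1.16) were higher and Psmb8 (-1.02) lower among 9 genes, with a median of 0.02. Of 12323 genes, 10.1% were higher and 7.44% lower, and the median was 0.04. The other 6 genes measured lay within 2-fold, from -0.74 for Psmb10 to 0.43 for Psmb9. Psmb8 passed the filter there only through the mESC library.

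In shGldc over NTC cells, 1 of 8 genes was higher (Tap1) and 2 lower (Tap2 and Psmb9), with a median of -0.39, and the background was 8.97% higher and 7.68% lower of 11969 genes, with a median of 0.04. Of the 8, 4 lay above 0 and 4 below. Without Psmb9, whose value in this contrast chose the set, 1 of 7 was lower and the median was 0.14. B2m (0.37) and Psmb10 (0.14) differed little, and the heavy chains stood just inside the 2-fold line. The untreated mESCs are in a table made separately from that of the NTC and shGldc cells, so their values are only set beside each other. Over them, NTC cells had 0 of 9 genes higher and 4 lower (B2m, Tap1, Tapbp, and Psmb8), beside 4.99% higher and 10.3% lower of 12048 genes, with medians of -0.18 and -0.06. Psmb8 passed there only through the mESC library, and its ratio of -3.36 rests on the NTC value under the floor, becoming -1.25 with 1 added to each FPKM. With 1 added, Tap1 (-0.87) and Tapbp (-0.93) fell short of 2-fold. When centred on the median of all genes, B2m (-0.999) and Tapbp (-0.95) did. For Tap1 the NTC level was 2.08 FPKM, the mESC level 4.64, and the shGldc level 12.5, so the fold depends on which library serves as control. Against untreated mESCs, the shGldc log2 ratio was 1.42 for Tap1, -1.33 for Tap2, and -2.64 for Psmb9, and it was -0.63 for Psmb8. B2m and Tapbp, which lay above 0 over NTC cells, lay below it over mESCs, at -0.69 and -0.16.

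**Figure D3:**
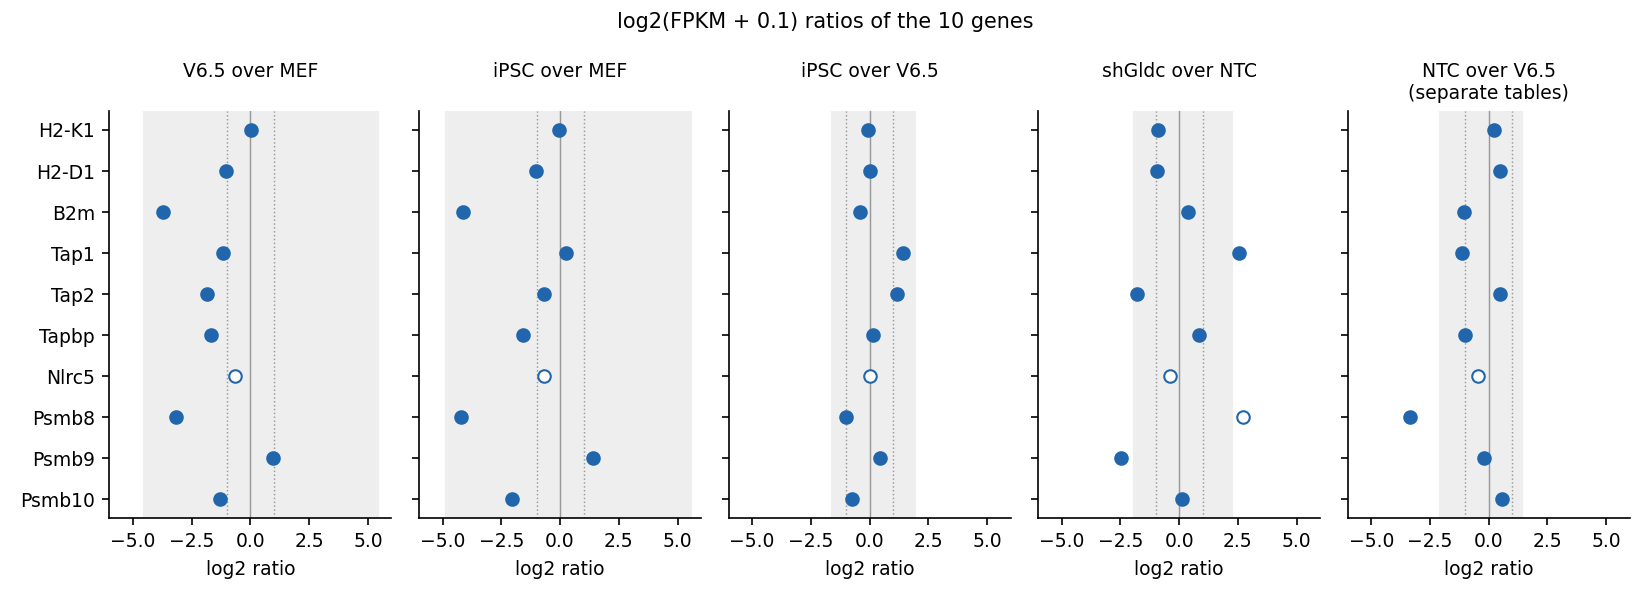
log2(FPKM + 0.1) ratios of the 10 genes in 5 comparisons, 1 point per gene. Grey bands hold the central 95% of all genes that reached 1 FPKM, dotted lines mark 2-fold, and open points are genes below 1 FPKM in both libraries. B2m and Psmb8 lay farthest left of 0 over MEFs. In shGldc over NTC cells, Tap1 lay at 2.54 and Psmb9 at -2.46, the value for which Psmb9 was chosen.

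Tap1, Tap2, Psmb8, and Psmb9 lie together in the class II part of the MHC on chromosome 17. The RefSeq start sites of Psmb9 and Tap1 are 226 bases apart and point away from each other, so that their promoter windows overlap by 275 bases. The stretch below holds the CCAAT box that both windows contain, in capitals.
Tap1 and Psmb9, chr17:34187322-34187351, plus strand: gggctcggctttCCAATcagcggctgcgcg

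Tap1 was 6.03-fold higher and Psmb9 6.01-fold lower in shGldc than in NTC cells. The Psmb9 value is the one for which the gene was chosen, and Psmb9 passed the filter only through the NTC library. Set beside untreated mESCs, Tap1 was 2.70-fold higher and Psmb9 6.85-fold lower. In GENCODE M21 the Tap1 and Psmb9 exons overlap over 212 bases (chr17:34187553-34187764), where the Psmb9 exon belongs to a longer transcript. Because the library kit does not mark strand, fragments from these bases cannot be told apart. Within 100 kb of the Tap1 start, 12 genes were listed, and their values are given for the shGldc and NTC libraries. Psmb8, whose start lies 10.2 kb downstream, stood at 0.0565 FPKM in NTC and 0.941 in shGldc cells. Tap2 begins at 16.0 kb and was lower. The class II genes H2-Ab1 (a class II beta chain, at 70.1 kb), H2-Oa (-95.2 kb), H2-DMa (-68.0 kb), and H2-DMb1 (-34.5 kb) had log2 ratios of -4.33, -3.35, -1.68, and -1.37. Brd2, a broadly expressed bromodomain gene in their midst at -64.9 kb, differed by 0.02, from 77.2 to 78.3 FPKM.

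**Figure D4:**
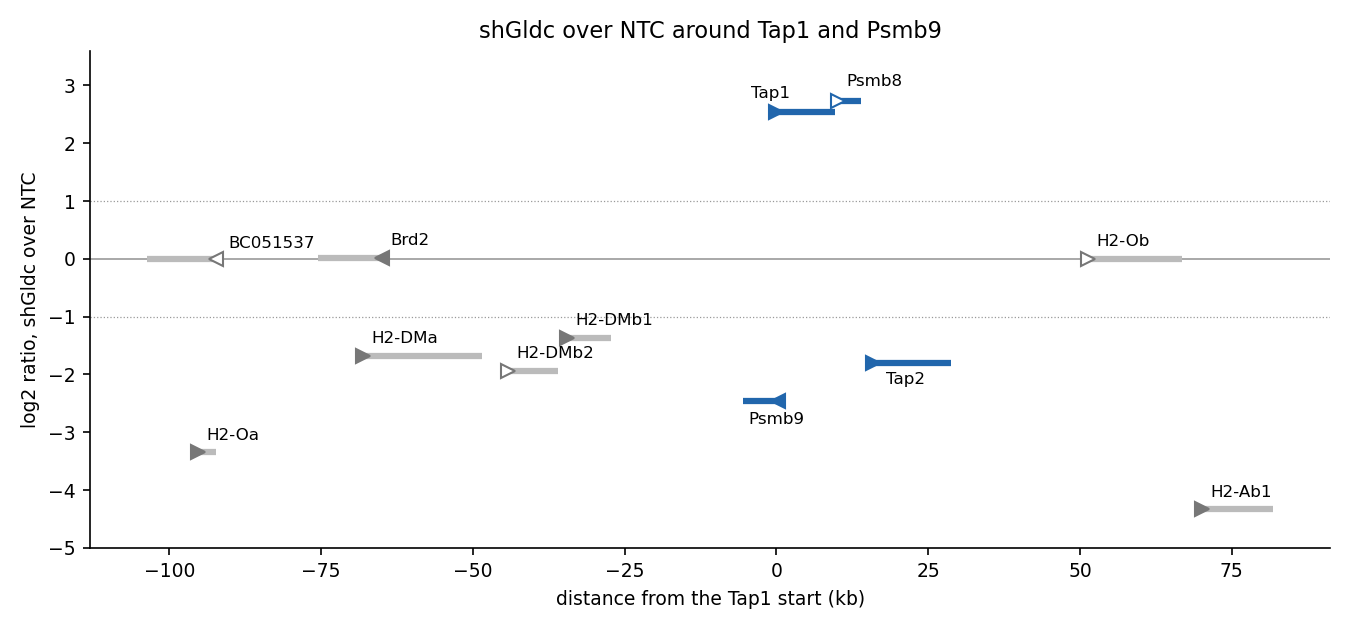
log2 ratio of shGldc over NTC cells against the distance from the Tap1 start in kb for the 12 listed genes within 100 kb. Bars span each gene, arrowheads mark the start and direction, blue marks genes of the set, and open arrowheads mark genes below 1 FPKM in both libraries. Tap1 (2.54) and Psmb9 (-2.46, the value for which the gene was chosen) start side by side, and Brd2 lies at 0.02.

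The class II list, taken as markers of professional antigen-presenting cells, stood lower in shGldc than in NTC cells. Of its 11 genes, 7 were measured in shGldc over NTC cells, and 6 were at least 2-fold lower, with a median log2 ratio of -1.68, beside 7.68% lower and 8.97% higher over all genes. H2-Ab1 and H2-Oa passed the filter only through the NTC library. H2-Ab1 stood at 15.6 FPKM in NTC cells against 0.682 after shGldc, Cd74 (the invariant chain) at 17.4 and 5.11, and H2-Eb1, the nearest to 0 at -0.20, at 25.2 and 21.97. The summed list was 21.1 FPKM in MEFs, 30.5 in iPSCs, 32.4 in mESCs, 80.3 in NTC cells, and 35.2 in shGldc cells, so the NTC library was the high one. H2-Eb1 made up most of the shGldc sum, at 21.97 FPKM against 5.79 in mESCs, while H2-Ab1 stood at 0.682 in shGldc cells and 6.83 in mESCs. Macrophage markers summed to 14.9 FPKM in NTC and 14.6 in shGldc cells, with 7 and 8 of 12 listed at 0, and only Cd68 reached 1 FPKM. The part of class II expressing cells in the Psmb9 and Tap2 values was not tested.

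Of 25 other class I and class I-like genes, 17 were measured in mESCs over MEFs, with 6 higher and 9 lower, beside 30.3% higher and 23.3% lower over all genes. In iPSCs over MEFs 19 were measured, with 8 higher and 10 lower, beside 31.5% and 21.3%. All of these higher genes passed the filter only through the pluripotent library, and 6 of the 9 lower genes in mESCs and 8 of the 10 in iPSCs only through MEFs. H2-Bl, named for the blastocyst, was listed at 0 in MEFs and stood at 2.88 FPKM in iPSCs, 9.84 in mESCs, 3.41 in NTC cells, and 15.8 in shGldc cells. H2-T23, which encodes the nonclassical Qa-1 molecule, stood at 8.55 FPKM in MEFs, 0.452 in mESCs, and 0.0285 in iPSCs, with log2 ratios of -3.97 and -6.07. In shGldc over NTC cells, 9 of 25 were measured, with H2-Bl higher (2.18) and 3 lower, the lowest being H2-Q7 (-2.39), beside 8.97% and 7.68% over all genes. The 3 lower genes, H2-Q7, H2-Q10, and H2-M3, passed only through the NTC library. Of the 50-base stretches of GENCODE M21 transcripts, 26.5% in H2-Q7, 14.5% in H2-T23, and 9.55% in H2-Bl also occurred in other genes, so how fragments were divided among these genes is uncertain.

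Of 9 chaperones and trimming enzymes of the loading pathway, 0 were higher and 5 lower in mESCs over MEFs, with a median of -1.05, beside 30.3% higher and 23.3% lower over all genes. In iPSCs over MEFs 0 were higher and 6 lower, with a median of -1.52, beside 31.5% and 21.3%. Sec61b, a subunit of the translocon, stood at 172 FPKM in MEFs, 93.1 in iPSCs, and 118 in mESCs, but at 198 in NTC cells and 249 in shGldc cells. The lowest were Tapbpl in mESCs (-4.61, a peptide editor related to tapasin, 5.66 FPKM in MEFs and 0.135 in mESCs) and Erap1 in iPSCs (-4.78, the peptide-trimming aminopeptidase, 4.81 FPKM in MEFs and 0.0786 in iPSCs). Both Tapbpl and Erap1 passed the filter only through MEFs. The general chaperone Calr was the nearest to MEFs in mESCs, at -0.52. In shGldc over NTC cells, 7 were measured and 0 were past 2-fold, from -0.18 for Hspa5 to 0.73 for Lnpep, beside 8.97% higher and 7.68% lower over all genes.

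Of the 11 other 20S core subunits, 0 passed 2-fold in mESCs over MEFs, 1 was higher in iPSCs over MEFs (Psmb3, 1.77, 3.41-fold), and 0 passed in shGldc over NTC cells. The shares over all genes were 30.3% higher and 23.3% lower, 31.5% and 21.3%, and 8.97% and 7.68%. The interferon-inducible activator subunits of PA28 diverged over MEFs: Psme1 stood at 84.0 FPKM in MEFs, 92.5 in iPSCs, 130 in mESCs, 73.2 in NTC cells, and 73.1 in shGldc cells. Psme2 stood at 65.0 FPKM in MEFs, 22.1 in iPSCs, 37.2 in mESCs, 20.3 in NTC cells, and 30.9 in shGldc cells. It was the lowest of its list of activators and assembly factors in both comparisons with MEFs (-0.81 in mESCs and -1.55 in iPSCs). Of the 10 genes of that list, 9 were measured. In mESCs over MEFs 1 was higher, the assembly factor Psmg1 (1.27), and 0 were lower, beside 30.3% and 23.3% over all genes. In iPSCs over MEFs Psme3 (1.11) and Psmg1 (1.07) were higher and Psme2 lower, beside 31.5% and 21.3%. None passed 2-fold in shGldc over NTC cells (0 of 9), beside 8.97% and 7.68%.

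Of 30 regulators of class I transcription, 28 were measured over MEFs. In mESCs 3 were higher and 11 lower, beside 30.3% and 23.3% over all genes. In iPSCs 5 were higher and 11 lower, beside 31.5% and 21.3%. Of the lower genes in mESCs, Irf2 and Jak2 passed the filter only through MEFs. The interferon gamma receptor chain Ifngr1 stood at 16.5 FPKM in MEFs and 1.82 to 3.88 in the other libraries, Ifngr2 at 33.1 and 2.80 to 5.27, Jak1 at 39.9 and 8.97 to 14.8, and Jak2 at 5.05 and 0.923 to 1.81. Both receptor chains, Jak1, and Jak2 were thus highest in the 1 MEF library, and the share of all genes highest there was not counted. Tyk2, a Jak family kinase of the type I interferon receptor, was lowest in MEFs, at 6.96 FPKM against 12.6 to 16.02. Irf1, which activates class I promoters, did not follow them, at 10.3 FPKM in MEFs, 7.72 in iPSCs, 9.20 in mESCs, 10.7 in NTC cells, and 14.2 in shGldc cells. Rfx5, a subunit of the factor that Nlrc5 joins at class I promoters, stood between 2.07 and 3.51 FPKM in all 5 libraries. Ezh2, the histone H3K27 methyltransferase, stood at 12.7 FPKM in MEFs and 34.1 to 46.5 in the pluripotent libraries. The extremes of the list were Socs3, an inhibitor of Jak signaling (3.04 in mESCs and 3.14 in iPSCs over MEFs), Irf2 (-3.73 in mESCs over MEFs), and Ifngr2 (-3.52 in iPSCs over MEFs).

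Values in shGldc over NTC cells are given for some of the regulators only, with no count over the list. Irf8, a factor of myeloid cells, had the lowest log2 ratio (-2.93, 3.90 FPKM in NTC and 0.424 in shGldc cells) and passed the filter only through the NTC library. Socs3 stood at -1.11. The interferon gamma receptor and Jak genes lay within 2-fold, at 0.64 for Ifngr1, 0.63 for Ifngr2, 0.88 for Jak2, and 0.06 for Jak1, as did Irf1 at 0.41.

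Among themselves, the 10 genes had unlike profiles over the 5 libraries. Tapbp and Nlrc5 were the closest to the mean profile of the set, at root mean square distances of 0.2996 and 0.280 on the log2 scale, although Nlrc5 was near the detection limit. Psmb8 (1.52) and Psmb9 (1.21) were the farthest, and they were also the farthest apart of any pair, at 2.57. The Psmb8 profile includes the NTC value under the floor, and the Psmb9 profile the shGldc value for which it was chosen. The highest library was MEFs for H2-D1, B2m, Tap2, Tapbp, Psmb8, Psmb10, and Nlrc5, iPSCs for Tap1 and Psmb9, and NTC cells for H2-K1. The share of all genes highest in MEFs was not counted. Of 13656 genes searched, those nearest to the mean profile were Tmed7 (0.0628), Coq10b (0.0866), Chpf (0.0991), Secisbp2l (0.0995), and Apbb2 (0.103), each highest in MEFs. This likeness rests on 5 libraries.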

How the data were processed

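RNA was sequenced from 5 mouse libraries, 1 per group, grouped by the labels. The authors mapped reads to mm10 with TopHat2 2.1.0, assembled transcripts with StringTie 1.3.4d, and computed gene expression with Ballgown. They deposited FPKM values in 2 separately made tables. SAMtools 1.7 and mm9 are also named in the submitters' processing notes, and the annotation is not given in the sources used here. From these values, log2 ratios were computed with a pseudocount of 0.1, which understates differences of low genes, and folds are plain FPKM ratios. Counts past 2-fold used genes that reached 1 FPKM in either library. No test was run with 1 library per group.

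The genes and lists were chosen with earlier results of these data known. Named were all 10 genes, listed regulators, neighbors of Tap1, constitutive subunits, the extremes of each list, and the 5 nearest profiles. The values of a listed regulator that this rule names are not reported here. Brd2 and the class II genes came from the neighborhood and list rules, and Cd74, Lyz2, C1qa, Cd68, Sec61b, Tyk2, and Psmg1 in iPSCs were picked after values were seen. Positions came from GENCODE M21 (mm10), in which 23376 symbols matched.

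Depth was estimated from the spacing of low FPKM values over 5723 genes with a single annotated transcript, at 1 to 3 multiples. The computations were tested on simulated data. Python 3.11.15, numpy 2.4.6, pandas 2.3.3, and matplotlib 3.10.9 were used. The alternatives were pseudocounts of 1 and 0.01, no filter or 5 FPKM, folds of 1.5 and 4, centring on the median, an equal FPKM sum, the mean of the set, and untreated V6.5 as the control of shGldc.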

Additional observations from a re-analysis of the deposited data

How the results depend on the processing

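With 1 library per group no replicate can be left out and no spread can be measured, and values near 3 fragments (Nlrc5, and Psmb8 in NTC cells) are limited by depth. No paired analysis was possible because the result comes from no test and each group has 1 library. The medians of the 10 genes moved by less than the robust SD of 0.594 (log2 NTC over mESCs, all genes) in every alternative run, but those near 0 changed sign or size. The median of shGldc over NTC cells went from -0.39 to 0.14 at 5 FPKM, -0.12 with no filter, and -0.63 with untreated mESCs as the control, that of NTC over mESCs from -0.18 to 0.02 at 5 FPKM, -0.33 with no filter, and -0.56 with the mean, and that of iPSCs over mESCs from 0.02 to -0.05 with an equal FPKM sum and -0.03 when centred.

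The counts past the fold line depended on where it was drawn. At 1.5-fold, 1 gene was higher in mESCs over MEFs, 6 were lower in iPSCs over MEFs, 2 were lower in iPSCs over mESCs, and 2 were higher and 4 lower in shGldc over NTC cells. At 4-fold, 2 genes were lower in mESCs over MEFs, 0 higher and 3 lower in iPSCs over MEFs, 0 higher and 0 lower in iPSCs over mESCs, 1 lower in shGldc over NTC cells, and 1 lower in NTC over mESCs. With a pseudocount of 1, iPSCs over mESCs had 1 gene higher and 0 lower, and NTC over mESCs had 2 lower. With a minimum of 5 FPKM, 0 genes were lower in iPSCs over mESCs, 1 was lower in shGldc over NTC cells, and 2 were lower in NTC over mESCs. Centring on the median of all genes gave 2 lower in NTC over mESCs, an equal FPKM sum gave 3, and no filter gave 2 higher in shGldc over NTC cells. Against untreated mESCs in place of NTC cells, the log2 ratio of Psmb8 in shGldc cells turned from 2.73 to -0.63, that of B2m from 0.37 to -0.69, and that of Tapbp from 0.85 to -0.16. Centring also turned H2-K1 in mESCs over MEFs from 0.03 to -0.22, Tap1 in iPSCs over MEFs from 0.27 to -0.04, and H2-D1 in iPSCs over mESCs from 0.02 to -0.03. Without Psmb9, a setting chosen after seeing the data, shGldc over NTC cells had 1 gene higher and 1 lower of 7, with a median of 0.14. The counts at 1.5-fold and 4-fold follow from the line itself and that without Psmb9 from the gene left out, and for the other settings the cause was not tested.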
